A study of Mus musculus with 6 samples.

Results

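MicroRNA genes were read from expression arrays of mouse B cell precursors carrying the oncogene BCR-ABL1. A gene was included when its symbol in the platform annotation starts with Mir and a digit or with Mirlet7, and only probe sets with exactly 1 gene symbol were used. Where a gene had several such probe sets, the one with the highest mean over all arrays stood for it. This gave 300 microRNA genes of the 19938 genes measured. The reference annotation classes 296 of them as miRNA genes and 4, namely Mir17hg, Mir99ahg, Mir100hg and Mir670hg, as long non-coding RNAs.

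Cells lacking Dusp6 (Dusp6 KO, 3 arrays) were compared with Dusp6 wild-type cells (Dusp6 WT, 3 arrays). The cells of both genotypes were pre-B cells on a mixed C57Bl/6-SV129j background, and both had been transformed with BCR-ABL1, a fusion tyrosine kinase that in humans drives an acute lymphoblastic leukaemia with the Philadelphia chromosome (Ph+ ALL in the sample titles). Dusp6 encodes a phosphatase that acts on the ERK MAP kinases. The labels do not describe the knockout allele, the age of the mice or the treatment of the cells, and from them it is unknown whether the replicates of a genotype are separate mice, cultures or hybridisations. The p-values below thus cover the spread between these 6 arrays alone, and that spread may be technical.

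The log2 signal of Dusp6 was 9.04, 9.06 and 9.15 on the KO arrays, against 12.36, 12.46 and 12.49 on the WT arrays, a 10.3-fold lower signal in KO. Of 17 precursor B cell markers, 12 lay above the upper quartile of every array (10.45 to 10.49), whereas 14 of 18 myeloid and mast cell markers and 14 of 16 T and NK cell markers lay below the median of every array, as did 5 of 9 erythroid and megakaryocyte and 9 of 14 stromal and fibroblast markers. The signals of each list were also summed on the linear scale, and the log2 of each sum is given here. For the precursor B markers it was 17.01 to 17.04 in KO and 17.09 to 17.10 in WT. The myeloid sum was 12.03 to 12.07 in KO and 11.95 to 11.99 in WT, and that of the T and NK markers was 11.64 to 11.68 in KO and 11.57 to 11.62 in WT. The erythroid sum was 11.26 to 11.31 in KO and 11.28 to 11.32 in WT, and the stromal sum was 14.40 to 14.42 in KO and 14.38 to 14.43 in WT. Within the precursor B list, 4 markers were higher and 6 lower in KO at an adjusted p under 0.05 in limma. That is 58.8% of the list, beside 19.8% of all genes. Differences in the list ran from -1.42 to 1.33 on the log2 scale, and opposite changes can offset each other in a sum. The part of these shifts in the differences of the microRNA genes was not tested. In bulk RNA, fewer cells of a type and less RNA per cell cannot be told apart. Between arrays, the signals of the microRNA genes correlated at 0.997 to 0.998 within a genotype and at 0.994 to 0.996 across genotypes.

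MicroRNAs are short RNAs that lower the output of messenger RNAs. A long primary transcript folds into hairpins, which Drosha and Dgcr8 cut out in the nucleus. Xpo5 exports the hairpin, Dicer1 cuts it again, and 1 strand is kept as the mature microRNA in an Argonaute protein. Bases 2 to 8 of the mature strand, the seed, pair with the target, so microRNAs with a shared seed have largely shared targets. Many microRNA genes lie in clusters that are transcribed together, or inside the introns of other genes. In B cells, microRNAs such as miR-150, miR-155, miR-181 and the miR-17 group are known regulators of development and of lymphoma. The arrays measured total RNA with probe sets assigned to the microRNA genes, and whether a signal came from the primary transcript, the hairpin or the mature strand was not resolved. Signals of different probe sets are not on 1 scale of abundance, so levels are compared only between genotypes.

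The sequences shown here belong to some of the seed families in which a gene passed the test, so that the shared part can be seen. Apart from the miR-26 family, each is set with members that did not pass. They are mature strands, 5′ to 3′, from RefSeq (GRCm38.p6), with the seed in capitals. Such sequences were found there for 270 of the 300 genes. The first family has the seed of miR-25, miR-92 and miR-363, and both of its genes that passed the test, Mir363 and Mir25, were lower in KO.
Mir363, miR-363-3p: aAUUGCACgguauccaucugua
Mir25, miR-25-3p: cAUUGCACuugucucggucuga
Mir92-2, miR-92a-3p: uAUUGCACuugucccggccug
Mir32, miR-32-5p: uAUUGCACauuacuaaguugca
Mir367, miR-367-3p: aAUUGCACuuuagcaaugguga
The second family has the seed of miR-15 and miR-16. Mir15a was lower and Mir195a higher in KO, while their cluster neighbours Mir16-1 and Mir497 did not pass the test.
Mir15a, miR-15a-5p: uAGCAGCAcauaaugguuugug
Mir195a, miR-195a-5p: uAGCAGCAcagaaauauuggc
Mir16-1, miR-16-5p: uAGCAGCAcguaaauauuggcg
Mir497, miR-497a-5p: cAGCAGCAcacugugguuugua
The third family is that of miR-181, with Mir181d and Mir181a-2 higher in KO.
Mir181d, miR-181d-5p: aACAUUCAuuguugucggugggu
Mir181a-2, miR-181a-5p: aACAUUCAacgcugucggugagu
Mir181c, miR-181c-5p: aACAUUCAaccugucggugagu
Mir181b-2, miR-181b-5p: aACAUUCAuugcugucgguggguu
Both measured genes of the miR-26 family passed the test and were higher in KO.
Mir26a-1, miR-26a-5p: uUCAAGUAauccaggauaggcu
Mir26b, miR-26b-5p: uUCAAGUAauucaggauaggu
Mir708, lower in KO, has the seed of Mir28a, which did not pass the test.
Mir708, miR-708-5p: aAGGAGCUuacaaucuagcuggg
Mir28a, miR-28a-5p: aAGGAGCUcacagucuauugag

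Few microRNA genes passed the test for a difference between the genotypes, and most differences were small, as they were over all genes. A gene was called when its adjusted p was under 0.05 in limma, with Benjamini-Hochberg adjustment over all 19938 genes, and each difference is the mean log2 signal in KO minus that in WT. Of the 300 microRNA genes, 22 were called (7.33%), where 19.8% of all genes were called. In KO, 12 were higher (4%) where 9.66% of all genes were higher, and 10 were lower (3.33%) where 10.2% of all genes were lower. The 3 arrays of KO and the 3 arrays of WT did not overlap for 60 microRNA genes (34 higher and 26 lower in KO), where 35.7% of all genes did not overlap (17.3% higher and 18.4% lower). The 22 called genes were all among these 60. Single arrays moved these counts: 7 genes were higher without WT array 1, and 6, 5, 4 and 16 were lower without KO array 2, KO array 3, WT array 2 and WT array 3. At an unadjusted p under 0.05, the count was 59 microRNA genes (19.7%), against 30.6% of all genes. This gap depended on signal. In the lowest quartile of mean signal the share was 16.4%, beside 14.2% of all genes there. It was 24.3% beside 21.1% in the second quartile and 22.8% beside 46.5% in the third.

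The median difference of the microRNA genes was 0.0073, beside 0.0018 over all genes, and 160 of them lay above 0 and 140 below. Their median absolute difference was 0.067, beside 0.071 over all genes, and the median standard error was 0.060 and 0.051. Mir363 was the only microRNA gene that differed by more than 2-fold, as 258 of all genes did. Differences of less than 0.1 were measured for 194 microRNA genes (64.7%), and 62.9% of all genes were that close. The 95% interval of the difference lay inside 0.5 in either direction for 93.4% of all genes and 97.5% of those in the lowest quartile of mean signal. Among the microRNA genes it did so for 296 of the 300 (98.7%). The exceptions were Mir363, Mir708, Mir325 and Mir130a, the last with a difference of 0.27 that was not called (adjusted p = 0.12 in limma, but 0.0083 without WT array 3). Among the 22 called genes the median absolute difference was 0.23, or 1.17-fold.

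**Figure D1:**
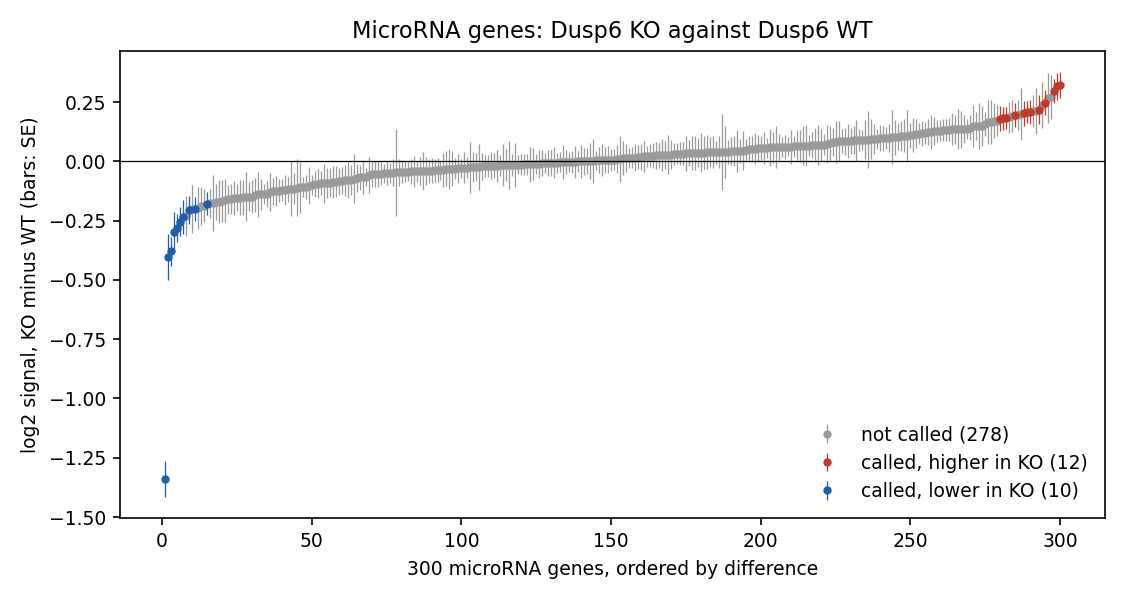
The log2 difference (KO minus WT, vertical axis) of each of the 300 microRNA genes, ordered along the horizontal axis, with bars for limma's standard error. The 12 genes called higher and the 10 called lower in KO lie toward the ends, with uncalled genes among them. Mir363 at -1.34 lies apart from the rest.

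The probe sets of microRNA genes were dim. Their median log2 signal was 6.996, beside 8.62 over all genes, and 155 to 158 of the 300 lay under the lower quartile of an array (7.12 to 7.16). The dimmest was Mir297-1, at 3.52, 3.52 and 3.49 on the KO arrays and 3.48, 3.52 and 3.52 on the WT arrays. Mir190a, Mir466, Mir376c and Mir463 were next, all with means under 3.8 in both genotypes, and none was called. The brightest was Mir692-1, with means of 10.94 in KO and 10.99 in WT, which was not called either. When genes were ranked by mean signal, the lowest quartile held 171 microRNA genes, of which 7 were called (4.09%), beside 5.42% of all genes there. In the second quartile 7 of 70 were called (10%, beside 12.4% of all genes), and in the third 7 of 57 (12.3%, beside 34.7%). The top quartile held 2 microRNA genes, of which Mir505 was called and Mir692-1 was not, beside 26.8% of all genes there. The shares were thus close in the lowest 2 quartiles and lay apart in the third.

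**Figure D2:**
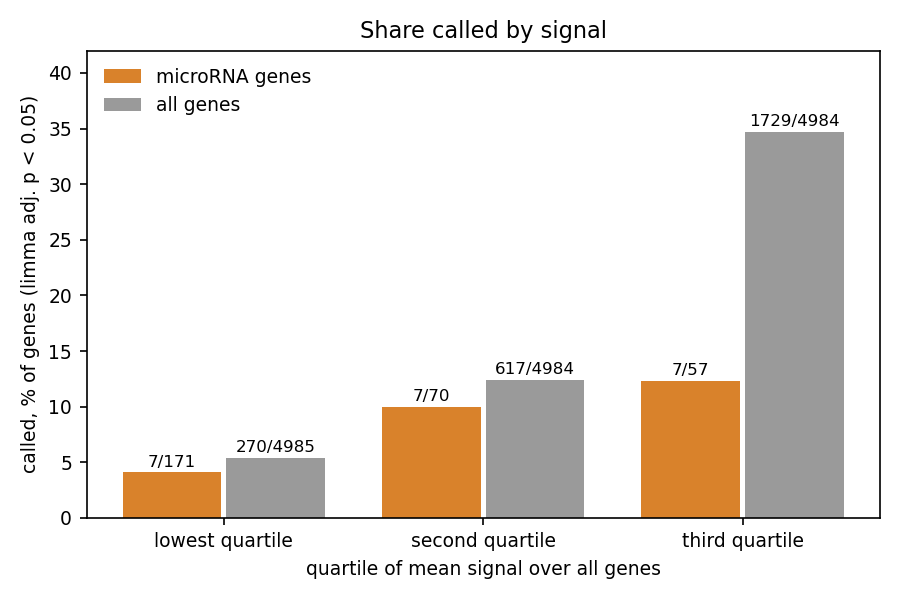
The share of genes called (percent, limma adjusted p under 0.05) among microRNA genes and among all genes, in the 3 lower quartiles of mean signal, with the counts over the bars. The shares are 4.09% and 5.42% in the lowest quartile and 12.3% and 34.7% in the third.

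Mir363 had the largest difference of the microRNA genes. Its log2 signal was 5.41, 5.28 and 5.54 on the KO arrays and 6.67, 6.71 and 6.87 on the WT arrays, and all KO values lay below all WT values. The means were 5.41 ± 0.13 in KO and 6.75 ± 0.10 in WT (SD, n = 3 each). It fell by 1.34 on the log2 scale (SE 0.074), a 2.53-fold lower signal in KO, with an adjusted p of 1.4e-06 in limma. Leaving out each array in turn gave differences between -1.41 and -1.28, all called. Both group means were under the lower quartile of the arrays. Its hairpin lies at chrX:52741693-52741767 on the minus strand (GRCm38.p6) and is shown here with the mature strand in capitals.
Mir363, hairpin: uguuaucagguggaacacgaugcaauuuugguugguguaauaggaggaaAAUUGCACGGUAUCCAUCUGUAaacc

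Mir363 belongs to the miR-106a group, a paralogous copy of the miR-17 group on the X chromosome, and its measured neighbours there did not pass the test. Mir92-2, whose hairpin starts 70 bases away, carries the same seed. It read 6.499, 6.322 and 6.474 in KO and 6.267, 6.486 and 6.345 in WT, so that the genotypes overlapped (difference 0.07, SE 0.068, adjusted p = 0.58 in limma). Mir19b-2 read 4.69, 4.64 and 4.65 in KO and 4.81, 4.84 and 4.75 in WT. Its genotypes did not overlap, and its difference of -0.14 missed the threshold (adjusted p = 0.053 in limma). Mir19b-2 passed with quantile normalization repeated and with each array centred on its median (adjusted p 0.036 and 0.026 in limma). The differences were -0.03 for Mir20b and -0.11 for Mir106a, with adjusted p of 0.83 and 0.19 in limma. When each neighbour was subtracted from Mir363 on the same array, KO minus WT was -1.41 against Mir92-2, -1.20 against Mir19b-2, -1.31 against Mir20b and -1.23 against Mir106a. Mir363 was singled out here for its large difference, so these 4 values are a description, with no test.

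By the test above, in no genomic cluster was more than 1 gene called. MicroRNA genes within 10 kb of each other on the same strand were joined, which gave 42 clusters of 2 or more with 136 genes in all. A strand was known for 275 of the 300, and genes without one could not be joined. A called gene was present in 10 clusters, with 28 genes, of which 18 were uncalled neighbours. Some of these passed in other settings. Mir27a and Mir296 did so without KO array 1 and KO array 2 (adjusted p 0.0013 and 0.029 in limma). Mir19b-2 and Mir27a passed with each array centred on its median (adjusted p 0.026 and 0.042 in limma). Mir302c passed with the replicate block, and Mir93 without genes under the 25th percentile of signal (adjusted p 0.018 and 0.031 in limma). The largest cluster had 30 genes, from Mir379 to Mir369 in the imprinted region of chromosome 12, and its differences ran from -0.13 to 0.19 with a median of 0.02 and 0 calls. On the whole of chromosome 12, 0 of 47 microRNA genes were called in limma, where 7.33% of all 300 were, and 7 had an unadjusted p under 0.05 (14.9%, beside 19.7% of all 300 and 30.6% of all genes). Chromosome X held 39, with 3 lower (Mir363, Mir325 and Mir505) and 0 higher. The 7.69% called there lay near the 7.33% of all microRNA genes and under the 19.8% of all genes.

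**Figure D3:**
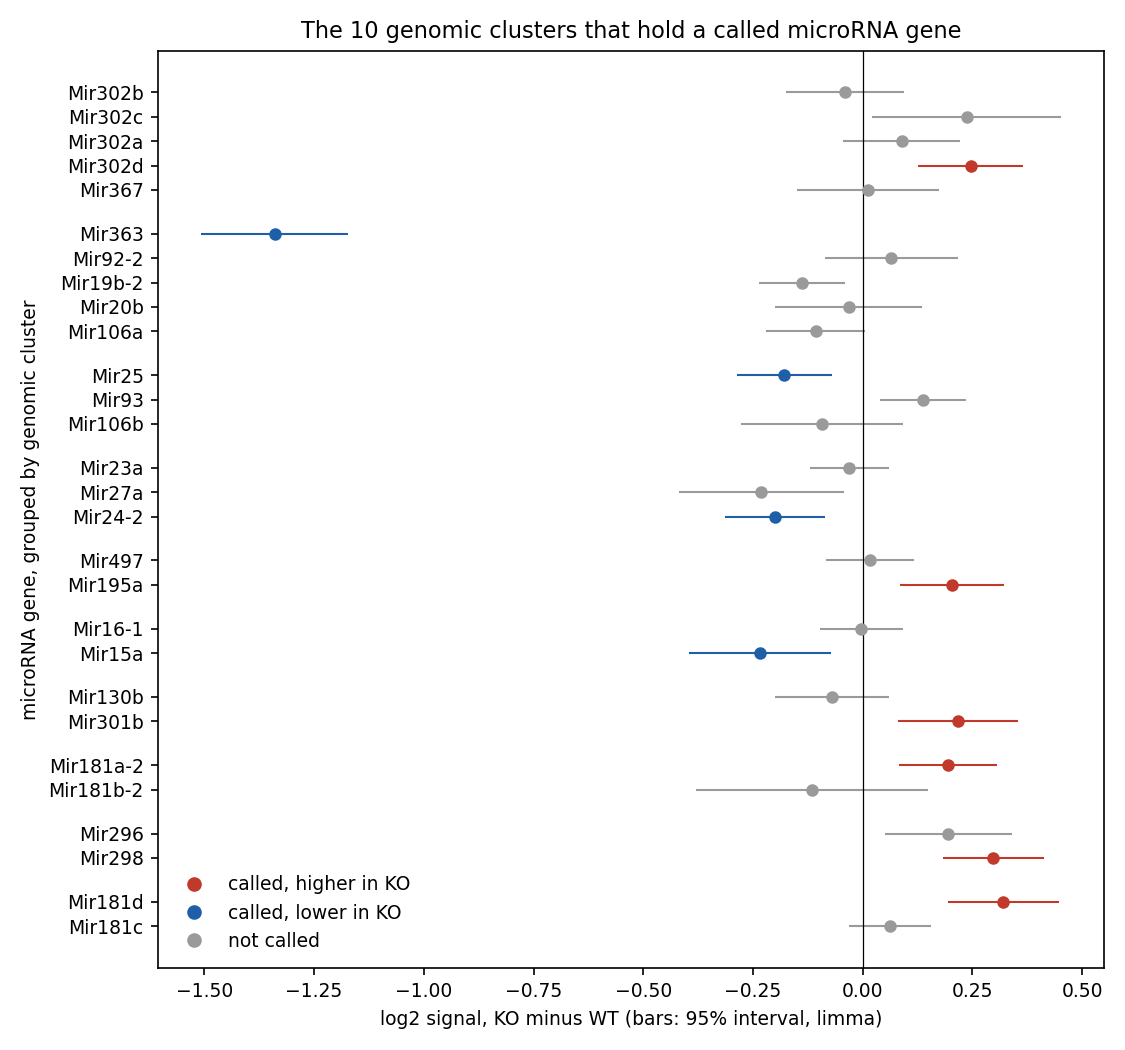
The log2 difference (KO minus WT, horizontal axis) of the 28 microRNA genes in the 10 clusters that hold a called gene, in their order along the chromosome, with bars for limma's 95% interval. In each cluster 1 gene is called, and Mir363 at -1.34 lies far to the left of its neighbours, which range from -0.14 to 0.07.

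After Mir363, the microRNA genes lowest in KO relative to WT were Mir708, Mir325 and Mir505. Mir708, which lies in an intron of the teneurin gene Tenm4, read 7.73, 7.74 and 7.74 in KO and 8.14, 8.38 and 7.90 in WT. The KO arrays were almost equal while the WT arrays were spread from 7.90 to 8.38, all of them above KO. The difference was -0.40 (SE 0.098, adjusted p = 0.018 in limma), and the call was lost without KO array 2 or KO array 3 (adjusted p 0.062 and 0.051 in limma). Mir28a, which has the same seed, had a difference of 0.10 (adjusted p = 0.31 in limma). Mir325 read 6.15, 6.10 and 6.13 in KO and 6.60, 6.37 and 6.55 in WT, and fell by 0.38 (SE 0.060, adjusted p = 0.0016 in limma). It stayed called with any of the 6 arrays left out. Mir505 had the second brightest probe set of the microRNA genes, at 10.62, 10.80 and 10.65 in KO and 10.94, 11.18 and 10.84 in WT. The lowest WT array was only just above the highest KO array, the difference was -0.30 (SE 0.084, adjusted p = 0.034 in limma), and the call was lost without KO array 1, KO array 3, WT array 1 or WT array 2 (adjusted p up to 0.10 in limma).

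Mir30c-2, a member of the miR-30 family, read 5.23, 5.27 and 5.12 in KO and 5.39, 5.51 and 5.57 in WT. It fell by 0.28 (SE 0.060, adjusted p = 0.0094 in limma) and stayed called with any array left out. Among the genes with a sequence in the RefSeq table, Mir30a, Mir30c-1, Mir30e and Mir384 share its seed, and none of these 4 was called. Mir30b and Mir30d of the same family were not called either, with differences of -0.09 and -0.16, though Mir30d passed without KO array 1 (adjusted p = 0.027 in limma). Mir7-1, in an intron of Hnrnpk, read 10.21, 10.11 and 10.25 in KO and 10.38, 10.49 and 10.32 in WT. Its difference was -0.21 (SE 0.057, adjusted p = 0.033 in limma), and the call was lost without KO array 1, KO array 2, WT array 1 or WT array 2 (adjusted p up to 0.11 in limma). Hnrnpk itself, an RNA-binding protein gene, had a difference of 0.06 (adjusted p = 0.40 in limma).

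Mir17hg is the host transcript of the miR-17 group, whose amplification is known from human B cell lymphoma. It read 9.71, 9.85 and 9.68 in KO and 9.90, 10.04 and 10.07 in WT, and fell by 0.26 (SE 0.061, adjusted p = 0.016 in limma). The call was lost without KO array 3, WT array 2 or WT array 3 (adjusted p 0.059 to 0.064 in limma). None of the 5 measured microRNA genes of the group was called. Mir18 had a difference of -0.17, Mir19a of -0.14, Mir17 of -0.11, Mir20a of -0.06 and Mir19b-1 of -0.02, with standard errors of 0.066 to 0.12 and adjusted p of 0.20 to 0.92 in limma; Mir18 passed without WT array 1 (adjusted p = 0.039). The 95% intervals of Mir17, Mir18, Mir19a and Mir19b-1 included the -0.26 of Mir17hg, while that of Mir20a ended at -0.23. Mir92-1 of the same group was left out because its probe set also carries the symbol Mir17hg. That probe set had a difference of -0.22 and was not called when every probe set was tested (adjusted p = 0.19 in limma).

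Mir15a and Mir16-1 share the intron of Dleu2, a region deleted in human chronic lymphocytic leukaemia. Mir15a read 9.39, 9.47 and 9.41 in KO and 9.59, 9.83 and 9.54 in WT, a difference of -0.23 (SE 0.072, adjusted p = 0.049 in limma). Mir16-1 read 6.38, 6.41 and 6.41 in KO and 6.42, 6.43 and 6.36 in WT, with a difference of -0.0031. The values of Mir16-1 overlapped between the genotypes. The call of Mir15a was lost without any array but WT array 3 (adjusted p up to 0.12 in limma). Mir195a, of the same seed family, lies with Mir497 on chromosome 11 and moved in the other direction. It read 8.23, 8.25 and 8.29 in KO and 7.98, 8.03 and 8.15 in WT, a difference of 0.20 (SE 0.052, adjusted p = 0.023 in limma), and lost its call without KO array 2, KO array 3, WT array 1 or WT array 2 (adjusted p up to 0.091 in limma). Mir497 had a difference of 0.02 and overlapping genotypes. The remaining genes of this seed, Mir15b at -0.18 and Mir16-2 at 0.0007, were not called, though Mir15b passed without KO array 2 (adjusted p = 0.022 in limma).

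Mir25 lies with Mir93 and Mir106b in an intron of Mcm7, a DNA replication gene. Mir25 read 9.48, 9.42 and 9.47 in KO and 9.58, 9.72 and 9.62 in WT, a difference of -0.18 (SE 0.048, adjusted p = 0.028 in limma). Mir93 read 8.71, 8.65 and 8.67 in KO and 8.49, 8.58 and 8.56 in WT, so that its genotypes did not overlap in the opposite direction (difference 0.14, adjusted p = 0.056 in limma). Mir106b had a difference of -0.09 and Mcm7 of -0.12 (adjusted p 0.52 and 0.077 in limma). The call of Mir25 was lost without KO array 2, KO array 3, WT array 2 or WT array 3 (adjusted p up to 0.096 in limma). Mir24-2, of the miR-23a group that in mice favours myeloid over B cell fate when it is raised, read 8.92, 8.79 and 8.93 in KO and 9.07, 9.12 and 9.05 in WT. Its difference was -0.20 (SE 0.050, adjusted p = 0.021 in limma), and the call was lost without KO array 2, WT array 1 or WT array 2 (adjusted p 0.058 to 0.076 in limma). Its neighbours Mir27a and Mir23a had differences of -0.23 and -0.03, the first with a wider spread (SE 0.084, adjusted p = 0.089 in limma, and 0.0013 without KO array 1).

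Among the genes higher in KO, Mir181d had the largest difference. The miR-181 family is known to promote B lineage development. Mir181d read 9.94, 9.87 and 9.81 in KO and 9.49, 9.65 and 9.51 in WT, with means of 9.87 ± 0.064 and 9.55 ± 0.085 (SD, n = 3 each). It rose by 0.32 (SE 0.056, adjusted p = 0.0029 in limma), a 1.25-fold higher signal in KO, and stayed called with any array left out. Mir181c, its neighbour within the cluster, read 9.33, 9.29 and 9.29 in KO and 9.25, 9.27 and 9.21 in WT, with a difference of 0.06 (adjusted p = 0.37 in limma). Mir181a-2, on chromosome 2, read 7.77, 7.65 and 7.77 in KO and 7.56, 7.57 and 7.48 in WT. Its difference was 0.20 (SE 0.049, adjusted p = 0.021 in limma), and the call was lost without KO array 1, KO array 3, WT array 1 or WT array 3 (adjusted p up to 0.081 in limma). The neighbouring Mir181b-2 had a difference of -0.12 with a standard error of 0.12. The chromosome 1 pair did not pass either, Mir181a-1 at 0.07 and Mir181b-1 at -0.14. Thus 2 of 6 miR-181 genes were called, both higher, where 7.33% of the 300 microRNA genes and 19.8% of all genes were.

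Mir26a-1 and Mir26b lie in introns of Ctdspl and Ctdsp1, which encode related phosphatases. Ctdspl had a difference of -0.53, called lower, and Ctdsp1 one of -0.17 that was not called (adjusted p = 0.066 in limma). Mir26a-1 read 7.55, 7.59 and 7.63 in KO and 7.46, 7.34 and 7.41 in WT, a difference of 0.18 (SE 0.047, adjusted p = 0.022 in limma). Mir26b read 7.99, 7.87 and 7.91 in KO and 7.76, 7.64 and 7.75 in WT, a difference of 0.21 (SE 0.051, adjusted p = 0.017 in limma). Both rose in KO without overlap. The call of Mir26a-1 was lost without KO array 2, KO array 3, WT array 2 or WT array 3 (adjusted p up to 0.085 in limma), and that of Mir26b without KO array 1 or WT array 2 (adjusted p 0.051 and 0.064 in limma).

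Mir298 and Mir296 are neighbours in the imprinted Gnas region. Mir298 read 7.48, 7.61 and 7.65 in KO and 7.28, 7.25 and 7.31 in WT, and rose by 0.30 (SE 0.051, adjusted p = 0.0026 in limma). Mir296 read 8.55, 8.40 and 8.60 in KO and 8.22, 8.39 and 8.35 in WT, also without overlap, with a difference of 0.20 that was not called (adjusted p = 0.063 in limma, and 0.029 without KO array 2). Mir302d, of the miR-302 group known from pluripotent stem cells, read 6.01, 5.96 and 5.87 in KO and 5.76, 5.71 and 5.64 in WT. It rose by 0.25 (SE 0.053, adjusted p = 0.0093 in limma), at a signal under the lower quartile of every array. The differences of its neighbours were 0.24 for Mir302c, 0.09 for Mir302a, -0.04 for Mir302b and 0.01 for Mir367, and none was called. Mir298 and Mir302d stayed called with any array left out.

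Mir688 read 8.46, 8.33 and 8.32 in KO and 7.96, 8.11 and 8.08 in WT, and rose by 0.32 (SE 0.057, adjusted p = 0.0035 in limma). Mir145a, a microRNA gene known from vascular smooth muscle, read 6.04, 6.11 and 6.03 in KO and 5.86, 5.79 and 5.89 in WT, and rose by 0.21 (SE 0.046, adjusted p = 0.010 in limma). Both stayed called with any array left out. Mir143, transcribed with Mir145a but not joined with it in the clusters above, had a difference of 0.06 (adjusted p = 0.54 in limma). Mir301b read 8.16, 8.18 and 8.17 in KO and 7.83, 7.94 and 8.08 in WT, a difference of 0.22 (SE 0.061, adjusted p = 0.032 in limma), and its call was lost without any array but WT array 3 (adjusted p up to 0.11 in limma). Its neighbour Mir130b had a difference of -0.07. Mir383 and Mir669b were each higher by 0.18 (SE 0.049 and 0.051, adjusted p 0.029 and 0.035 in limma). The call of Mir383 was lost without KO array 1, KO array 2, WT array 1 or WT array 2, and that of Mir669b without KO array 2, KO array 3, WT array 1 or WT array 3 (adjusted p up to 0.094 and 0.13 in limma).

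**Figure D4:**
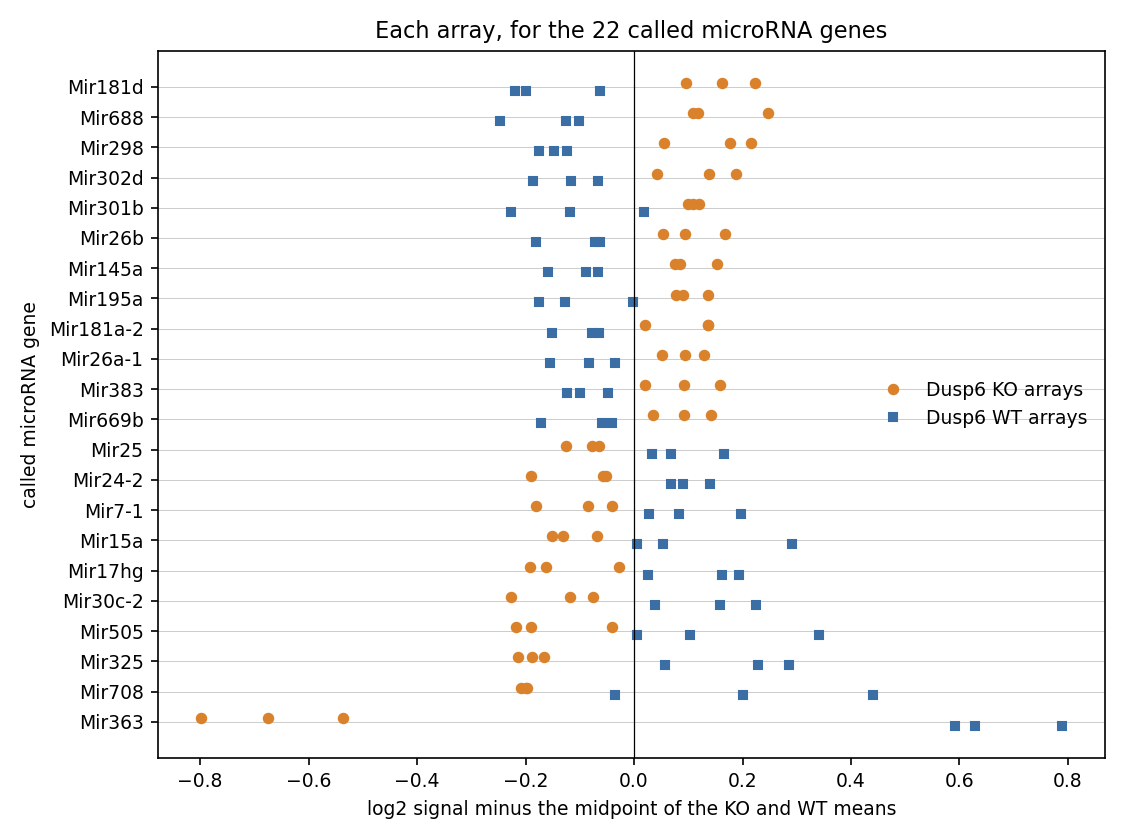
The log2 signal of each array for the 22 called microRNA genes, set against the midpoint of the KO and WT means of the gene (horizontal axis), with KO arrays as circles and WT arrays as squares. The genotypes do not overlap in any row, and the rows are ordered from Mir181d at 0.32 to Mir363 at -1.34.

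MicroRNA genes with known roles in B cells or leukaemia were compared as a list of 69 names, of which 61 were measured. In KO, 2 were higher (Mir181d and Mir181a-2) and 3 lower (Mir15a, Mir24-2 and Mir25), or 8.20% called. That share lay near the 7.33% of the 300 microRNA genes and under the 19.8% of all genes. The median difference of the list was -0.03. Mir155, which is known to drive B cell leukaemia in transgenic mice, read 8.26, 8.29 and 8.08 in KO and 8.06, 8.08 and 7.91 in WT. The difference was 0.19, 1 WT array lay above the lowest KO array, and the adjusted p was 0.079 in limma (0.026 without KO array 3). Mir150, a regulator of Myb in B cells, read 8.81, 8.78 and 8.65 in KO and 8.71, 8.78 and 8.62 in WT (difference 0.04, adjusted p = 0.69 in limma). Mir142, expressed throughout the blood lineages, read 10.62, 10.60 and 10.52 in KO and 10.44, 10.70 and 10.58 in WT. Its difference of 0.0059 was the smallest of these 3.

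Mir34a, a p53 target gene that acts on Foxp1 in B cells, had a difference of -0.17 (SE 0.090, adjusted p = 0.25 in limma, and 0.038 without WT array 3). Mir203, reported as a microRNA that targets ABL1, had a difference of -0.04 (SE 0.051, adjusted p = 0.68 in limma). Mir221 and Mir222, which target Kit and Cdkn1b, had differences of 0.04 and -0.12, and Mir222 passed without WT array 3 (adjusted p = 0.048 in limma). The bright probe sets of the list that were not called were Mir181b-1, Mir142, Mir210, Mir18, Mir212, Mir99b and Mir181c, with differences from -0.17 to 0.06. The let-7 family, whose maturation is blocked by the Lin28 proteins, had 9 genes measured by probe sets with 1 symbol. None was called in limma, where 7.33% of the 300 microRNA genes and 19.8% of all genes were. An unadjusted p under 0.05 was found for 2 (22.2%, beside 19.7% of the 300 and 30.6% of all genes). The differences ran from -0.17 (Mirlet7f-2) to 0.12 (Mirlet7c-1). Mirlet7f-2 passed without WT array 3 (adjusted p = 0.018 in limma). Mirlet7b and Mirlet7c-2 were left out because their probe sets also carry the symbol Lncppara. Those probe sets had differences of -0.13 and -0.07 and were not called when every probe set was tested.

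The genes that contain a microRNA gene on the same strand were examined next, since an intronic microRNA is often cut from its host's transcript. The reference annotation placed 131 of the 300 in such a host, and 91 of them had a host measured here, with 74 host genes in 92 pairs. Of the 74 hosts, 8 were higher and 8 lower in KO (21.6% called, beside 19.8% of all genes). The host was called for 23 microRNA genes, of which 3 were called themselves. Mir708 and its host Tenm4 were both lower, with differences of -0.40 and -0.56. Mir26a-1 was higher by 0.18 while Ctdspl had a difference of -0.53, called lower, and Mir301b was higher by 0.22 while the host 2610318N02Rik had a difference of -0.18, a call lost without KO array 3, WT array 1 or WT array 3 (adjusted p up to 0.080 in limma). Across the 92 pairs the differences of microRNA gene and host had a Pearson correlation of 0.24 and a Spearman correlation of 0.23, a description of pairs that share the same 6 arrays and in part the same host.

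The host with the largest difference was Fgf13, a fibroblast growth factor homologue that acts inside the cell on sodium channels and microtubules, at -1.78 (SE 0.053). Its microRNA gene Mir504 read 8.60, 8.48 and 8.51 in KO and 8.61, 8.82 and 8.64 in WT, lower in KO without overlap, but its difference of -0.16 was not called (adjusted p = 0.12 in limma). Clcn5, a chloride and proton exchanger gene on the X chromosome, rose by 0.35 (SE 0.056), and its 5 measured microRNA genes were not called. Their differences were 0.08 for Mir188 and Mir362, 0.01 for Mir501, -0.03 for Mir500 and -0.07 for Mir532. Vezt, at -0.42, holds Mir331, at 0.04, and Dalrd3, at -0.31, holds Mir191 and Mir425, at 0.09 and -0.04. Lpp, a focal adhesion gene at 0.30, holds Mir28a, at 0.10, and Hoatz, at 0.28, holds Mir34b and Mir34c, at -0.11 and -0.14. The call of Lpp was lost when the mean of its probe sets was used (0.14, adjusted p = 0.087 in limma). The other called hosts among the 12 with the largest differences were Wwp2 at 0.23 with Mir140 at 0.27, Eml2 at 0.23 with Mir330 at 0.10, Ttc28 at -0.23 with Mir701 at -0.14 and Tmem164 at 0.23 with Mir652 at 0.09. None of these microRNA genes was called. Mir140 read 6.59, 6.56 and 6.53 in KO and 6.12, 6.53 and 6.21 in WT, and 1 WT array lay within the range of the KO arrays (adjusted p = 0.070 in limma, and 0.0010 without WT array 2).

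**Figure D5:**
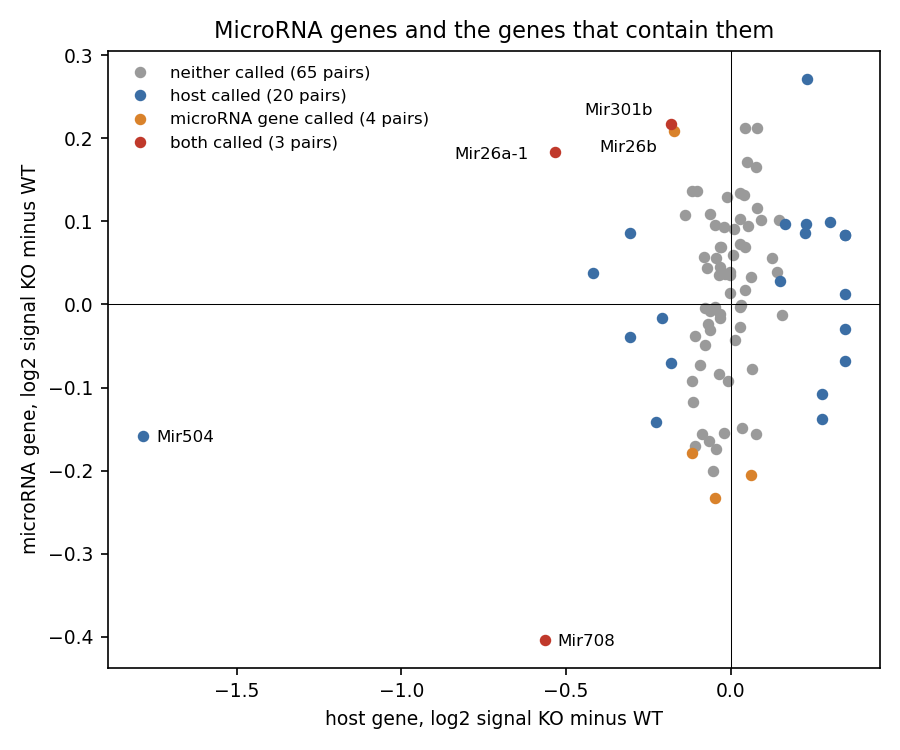
The log2 difference (KO minus WT) of the microRNA gene (vertical axis) against that of the gene containing it (horizontal axis) for 92 pairs, coloured by which of them was called. In 3 pairs both were called, and Fgf13 at -1.78 stands far from Mir504 at -0.16.

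Genes that make microRNAs or act with them were a list of 63 names, of which 60 were measured. In KO, 3 were higher and 8 lower (18.3% called, beside 19.8% of all genes), with a median difference of 0.02. The nuclear processing partner Dgcr8 fell by 0.21 in KO (adjusted p = 0.0046 in limma). Drosha, its catalytic partner, had a difference of 0.05, the exporter Xpo5 of -0.0016, Dicer1 of -0.03 and the Dicer partner Tarbp2 of -0.01, and none was called. Of the Argonautes, Ago2, the one that can cleave its target, read 12.22, 12.24 and 12.25 in KO and 12.44, 12.52 and 12.37 in WT. It fell by 0.21 (SE 0.049, adjusted p = 0.015 in limma), and the call was lost without WT array 2 (adjusted p = 0.055). Ago4 read 9.45, 9.66 and 9.51 in KO and 9.39, 9.27 and 9.29 in WT. It rose by 0.22 (SE 0.061, adjusted p = 0.029 in limma), and the call was lost without KO array 2, KO array 3, WT array 2 or WT array 3 (adjusted p up to 0.097).

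Downstream of the Argonautes, Tnrc6b, a scaffold of the silencing complex, and Ddx6, a helicase of translational repression, were higher by 0.16 and 0.17. The call of Tnrc6b was lost without any array but WT array 2, and that of Ddx6 without KO array 2, KO array 3, WT array 1 or WT array 3 (adjusted p up to 0.13 and 0.081 in limma). The count of higher genes in this list depended on single libraries: it was 3 without KO array 1, 2 without WT array 2, 1 without KO array 2 or WT array 1, and 0 without KO array 3 or WT array 3. The count of lower genes ran from 6 without WT array 2 to 9 without WT array 3. The largest difference was that of Adarb1, which edits adenosine to inosine in double-stranded RNA. It read 8.75, 8.62 and 8.60 in KO and 9.34, 9.39 and 9.33 in WT, and fell by 0.70 (SE 0.051), with all 3 KO arrays far below WT. Tsnax, an endoribonuclease subunit, Dcp1b, of the decapping complex, and Fmr1, an RNA-binding translational regulator, fell by 0.24, 0.23 and 0.23. Pan2, a deadenylase, and Dis3l2, an exonuclease that degrades uridylated let-7 precursors, had differences of -0.20 and -0.19, both called lower, and Pan2 lost its call without WT array 2 (adjusted p = 0.054 in limma). Lin28b, which blocks let-7 processing, had a difference of 0.09 and was not called.

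Genes reported as targets of B cell microRNAs were a list of 62 names, of which 57 were measured. In KO, 12 were higher and 10 lower, Dusp6 among them (38.6% called, beside 19.8% of all genes), with a median difference of 0.01. The members of this list were chosen for their roles in B cells, with results of these arrays known, so the share is a description of the list. Igf2bp3, an RNA-binding protein gene targeted by let-7, read 10.27, 10.33 and 10.24 in KO and 7.77, 7.77 and 7.79 in WT, a difference of 2.50 (SE 0.042). All 9 let-7 genes measured by probe sets with 1 symbol were uncalled beside it, where 7.33% of the 300 microRNA genes were called. A set of 9 is too small for that count to show that let-7 was unchanged, and a link to Igf2bp3 was not tested. Btg2 and Pdcd4, antiproliferative genes targeted by miR-21, were higher by 0.96 and 0.67. Nfia, a transcription factor gene targeted by miR-223, and Ptpn22, a phosphatase gene targeted by miR-181a, fell by 0.61 and 0.60.

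MicroRNA symbols also occurred on 61 probe sets that carry more than 1 symbol, which were kept out of the counts above. When every one of the 35556 probe sets was tested, 11.6% were called in limma, and of these 61 probe sets 0 were higher and 3 lower. They were a probe set of Lincmd1 and Mir133b at -0.22, 1 of Mir692-3, Mir692-2 and Ftl1 at -0.22, and 1 of Mir682 and Rpl37a at -0.17. Other probe sets with the symbols of the last 2 were not called, such as 1 with Ftl1 at -0.12 and those with Rpl37a at -0.13 and -0.15. All 3 called probe sets also carry the symbol of another gene, for the last 2 that of ferritin light chain or a ribosomal protein. Their signal thus cannot be assigned to a microRNA gene. In that fit 11 of all 366 microRNA probe sets were called, 5 higher and 6 lower, with Mir363 again at -1.34 (adjusted p = 0.00019).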

How the data were processed

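Total RNA of 6 samples was hybridised to Affymetrix arrays. The deposited values are log2 signals, 1 per probe set and array, made with RMA and Partek 6.5, per the submitters' processing notes; no settings are stated in the labels. They were used without further normalization, and all per-sample columns matched a label. Arrays have no read depth: their number, 3 per genotype, limits the precision.

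Of 35556 probe sets, 21789 had 1 symbol, 1621 several and 12146 none in the platform annotation, which left 19938 genes. The test was limma's moderated linear model (version 3.58.1, R 4.3.3; genotype alone, 6 arrays together), checked on simulated data, with Benjamini-Hochberg adjustment over all genes. Group means are given with SDs and differences with the standard errors of the limma fit. Groups came from the labels. Sequences, strands (275 of the 300) and clusters came from RefSeq tables of GRCm38.p6, and hosts are genes whose span contains the microRNA gene on the same strand.

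The naming rule took Dusp6, up to 12 called microRNA genes per direction, the called and the 10 brightest of the B cell and leukaemia list, the 5 brightest and 5 dimmest microRNA genes, up to 6 called genes each of the biogenesis and target lists, up to 12 called hosts, and clusters with a called gene. Other named genes, such as Mir130a, Mir140, Mir504, Mir155 and the remaining biogenesis genes, were picked with their values in view. The microRNA genes, lists and markers were chosen with earlier results of these data known. Alternatives covered normalization, dim genes, probe sets per gene, limma's options, the replicate block and each array left out.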

Additional observations from a re-analysis of the deposited data

How the results depend on the processing

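The count of microRNA genes higher in KO (12) was 5 when genes under the median signal were left out, which left 59 microRNA genes. There 14 of the 22 called genes were not tested, and the other 8 all stayed called. With genes under the 25th percentile of signal left out, 7 were not tested and the other 15 all stayed called. When every probe set was tested, the count higher was 5 and the count lower (10) was 6. Leaving out 1 array gave 7 to 12 higher and 4 to 16 lower: 7 higher without WT array 1, and 6, 5, 4 and 16 lower without KO array 2, KO array 3, WT array 2 and WT array 3. Of the 22 called microRNA genes, 11 to 17 stayed called with an array left out, and 8 did so for all 6 arrays (Mir363, Mir325, Mir30c-2, Mir181d, Mir688, Mir298, Mir302d and Mir145a). All of these 8 but Mir181d and Mir688 lay in the lowest quartile of mean signal. The calls kept were 19 with quantile normalization repeated, 21 with each array centred on its median, 21 with limma's trend and robust options and 22 with the mean of a gene's probe sets. Centring on the median changed the split of all genes to 1683 higher and 2435 lower, beside 1926 and 2028. Called genes of the biogenesis list that were higher (3) numbered 5 when genes under the median signal were left out, 5 with trend and robust options, 1 with the replicate block and 0 to 3 with an array left out. Same-numbered arrays of the 2 genotypes did not deviate together (correlations 0.0098, -0.12 and 0.053), so the numbers are not taken to pair them; with the replicate block 14 microRNA genes were higher and 7 lower, 18 of the 22 stayed called, and all genes gave 1681 higher and 1764 lower. The other counts of hosts, targets and lower biogenesis genes stayed within 1.5 times. Of 137 genes named in the text and followed through these alternatives, 0 of the 52 called changed sign and 29 uncalled ones did, all with differences of 0.090 or less in size. Mir155, uncalled, passed with the replicate block (adjusted p = 0.025 in limma). The uncalled hosts Mcm7 and Ctdsp1 passed, both lower in KO, with each array centred on its median (adjusted p 0.047 and 0.031 in limma). They also passed as lower with trend and robust options (adjusted p 0.0066 and 0.020 in limma). The cause of these changes was not tested. Of the 300 microRNA genes, 155 to 158 lay under the lower quartile of an array.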
